A study of Mus musculus with 12 samples.

Results

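The genes described here are 10 markers of blood vessel endothelium, Pecam1, Cdh5, Kdr, Flt1, Tek, Tie1, Emcn, Plvap, Cldn5 and Hey2, chosen by name. Each was represented by the probe set annotated to its symbol with the highest mean signal, and each had 1 such probe set among the 19505 symbols on the array. They were measured in 12 murine neuroblastoma tumors, raised by inoculating neuroblastoma cells into mice of the inbred A/J strain. The groups were tumors given high intensity focused ultrasound (HIFU, here mechanical fractionation of tissue by sound) and labelled 24 h, 48 h or 72 h, and untreated control tumors, with 3 Clariom S arrays in each. The cell line, a sham procedure and the number of animals are not given in the labels, which write both "at" and "for" before the hours, and the hours were taken here as time since HIFU. The labels number the tumors of a group but do not say that each came from its own animal, so p-values measure only the spread between these samples, part of which may be technical.

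Endothelial cells line every vessel and are held together by junction proteins such as VE-cadherin and PECAM-1. They respond to vascular endothelial growth factor (VEGF) through the receptors VEGFR1 and VEGFR2, and to angiopoietins through the TIE receptors. Notch signalling, acting through transcriptional repressors of the HEY family, separates arterial from venous cells, while the ETS family of transcription factors is active in endothelium as a whole. In solid tumors the vessels are often irregular and leaky, and in a piece of bulk tissue their transcripts mix with those of tumor, stroma and adjoining tissue.

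Start sites of 7 of the 10 genes, all but Pecam1, Cdh5 and Plvap, were matched to promoters of RefSeq (GRCm38.p6). The 3 sequences below, of up to 250 bases before the start site and outside the annotated gene, belong to Emcn and Hey2, the 2 genes whose HIFU arrays did not overlap the controls, and to Tie1, which held the most ETS core matches of the 7. Capitals mark the ETS core GGAAG, which reads CTTCC when it lies on the other strand, and the RBPJ motif of Notch signalling TGGGAA, which reads TTCCCA when it lies on the other strand. Each sequence is given 5′ to 3′ on the gene's strand.
Emcn, chr3:137340828-137341061, plus strand: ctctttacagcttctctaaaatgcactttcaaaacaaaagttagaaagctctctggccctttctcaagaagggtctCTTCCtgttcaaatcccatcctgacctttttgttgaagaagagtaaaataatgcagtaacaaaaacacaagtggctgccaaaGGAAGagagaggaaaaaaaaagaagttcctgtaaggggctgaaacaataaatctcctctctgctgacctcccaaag
Tie1, chr4:118489850-118490099, minus strand: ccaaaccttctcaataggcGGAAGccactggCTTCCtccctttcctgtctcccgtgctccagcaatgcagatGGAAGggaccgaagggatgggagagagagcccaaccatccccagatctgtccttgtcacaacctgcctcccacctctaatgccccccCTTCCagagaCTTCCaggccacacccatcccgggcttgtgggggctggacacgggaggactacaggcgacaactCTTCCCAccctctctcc
Hey2, chr10:30842784-30843033, minus strand: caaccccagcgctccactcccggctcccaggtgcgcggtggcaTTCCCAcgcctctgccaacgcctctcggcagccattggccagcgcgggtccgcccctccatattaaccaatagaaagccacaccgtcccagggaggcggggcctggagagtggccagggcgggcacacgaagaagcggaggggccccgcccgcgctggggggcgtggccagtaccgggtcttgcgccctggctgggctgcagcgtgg
Of 32851 promoter windows of 250 bases, 64.1% held the ETS core on either strand and 21.6% the RBPJ motif. Emcn held 2 ETS cores, a number reached by 29.4% of windows, and no RBPJ motif. Tie1 held 6 ETS cores, a number reached by 0.344% of windows, and 1 RBPJ motif that overlapped an ETS core. Hey2 held 1 RBPJ motif and no ETS core. Of the others, Flt1 held 3 ETS cores (a number reached by 10.7% of windows), Kdr held 1 of each motif, and Tek and Cldn5 held neither. These matches describe the letters of the windows and do not show binding.

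The values are log2 signals as deposited by the authors, with the base read from their range. Array medians lay between 5.43 and 5.68. Pairs of arrays of the same group correlated at 0.951 to 0.993 and pairs from different groups at 0.915 to 0.988, with a median of 0.973 for both. Of the sympathetic neuroblastoma markers, Chgb, Stmn2 and Dbh stood highest, at the 99.2nd, 98.7th and 98.2nd percentiles of mean signal over all probe sets. Others of that list stood lower, down to Mycn at the 56.3rd and Ddc at the 49.1st percentile. Transcripts of skeletal muscle also had high signals, and their level differed between arrays.

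None of the 10 genes passed the threshold (limma, Benjamini-Hochberg adjusted p of 0.05 over 22206 probe sets) at any time against control. Over all probe sets that call was made for 0.054% at 24 h, 0.0045% at 48 h, 0.00901% at 72 h and 0.018% for the mean of the 3 HIFU groups, so a count of 0 among 10 genes is near the background. In values, the VEGF and TIE receptors, the junction genes Pecam1 and Cdh5, and Emcn and Plvap averaged higher in each HIFU group than in controls. Cldn5 was near the control level and Hey2 was lower. The median difference of the 10 genes was 0.87 log2 units at 24 h, 0.62 at 48 h, 0.90 at 72 h and 0.79 for the mean of the HIFU groups. The median over all probe sets was 0.00, 0.01, -0.06 and -0.01 in the same comparisons, and the HIFU comparisons share their 3 control arrays. Of all probe sets, 50%, 50.9%, 43.4% and 49.3% had a difference above 0, against 8, 9, 8 and 9 of the 10 genes. Most of these genes moved together over the arrays, so the counts are not of separate observations. The genes were also chosen with earlier results of these data known. In bulk tissue, a change in the number of cells of a type and a change in RNA per cell cannot be told apart.

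Kdr encodes VEGFR2, the main signalling receptor for VEGF-A in endothelium. Its log2 signals were 9.54, 6.99 and 8.71 at 24 h, 7.93, 9.48 and 7.5 at 48 h, and 7.89, 9.43 and 8.04 at 72 h, against 6.17, 6.49 and 7.21 in controls. All HIFU arrays but HIFU_24h replicate 2 lay above every control, so the 48 h and 72 h groups did not overlap the controls and the 24 h group did. The difference from control was 1.79 ± 0.69 (SE) at 24 h (limma adjusted p = 0.441), 1.68 ± 0.69 at 48 h (0.332) and 1.83 ± 0.69 at 72 h (0.366). For the mean of the HIFU groups it was 1.77 ± 0.56, with a 95% interval of 0.54 to 3.00, which is 3.40-fold (limma adjusted p = 0.208), the highest estimate among the 10 genes.

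Flt1 encodes VEGFR1, which binds VEGF-A tightly with weak signalling and in part acts as a decoy. Signals were 9.27, 8.37 and 8.68 at 24 h, 7.92, 9.06 and 8.33 at 48 h, and 8.40, 8.88 and 8.64 at 72 h, against 8.14, 7.63 and 8.89 in controls. The groups overlapped at every time, and control replicate 3 lay above 7 of the 9 HIFU arrays. The mean HIFU difference was 0.40 ± 0.31 (limma adjusted p = 0.601). Set against each other on the same array, the difference of log2 signals Kdr minus Flt1 averaged -0.23 ± 0.64 on the 9 HIFU arrays and -1.60 ± 0.42 on the 3 control arrays (SD), and 8 of the 9 HIFU arrays lay above every control. This pair was chosen after the values were seen, so its shift of 1.37 is given without a test; within HIFU arrays the difference ran from -1.38 in HIFU_24h replicate 2 to 0.55 in HIFU_72h replicate 2.

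Tek encodes TIE2, the receptor of the angiopoietins. Its signals were 6.91, 5.15 and 5.60 at 24 h, 5.70, 6.43 and 4.82 at 48 h, and 4.81, 6.49 and 5.32 at 72 h, against 5.04, 4.95 and 4.78 in controls. One array stood high in each HIFU group, and 7 of the 9 HIFU arrays lay above the controls, with overlap at 48 h and 72 h. The differences from control were 0.96 ± 0.54, 0.73 ± 0.54 and 0.62 ± 0.54 (limma adjusted p = 0.588, 0.579 and 0.734). Tie1 encodes a related receptor that modulates TIE2 and has no well-defined soluble ligand. It had signals of 6.83, 5.66 and 6.50 at 24 h, 5.79, 6.38 and 6.0 at 48 h, and 5.26, 6.61 and 6.56 at 72 h, against 5.76, 5.18 and 5.71 in controls. The 48 h arrays lay above all controls, narrowly, while the 24 h and 72 h groups overlapped them. The mean HIFU difference was 0.63 ± 0.33 (limma adjusted p = 0.407). The Tek minus Tie1 difference averaged -0.48 ± 0.52 on HIFU arrays and -0.63 ± 0.36 on control arrays (SD), with overlapping ranges.

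**Figure D1:**
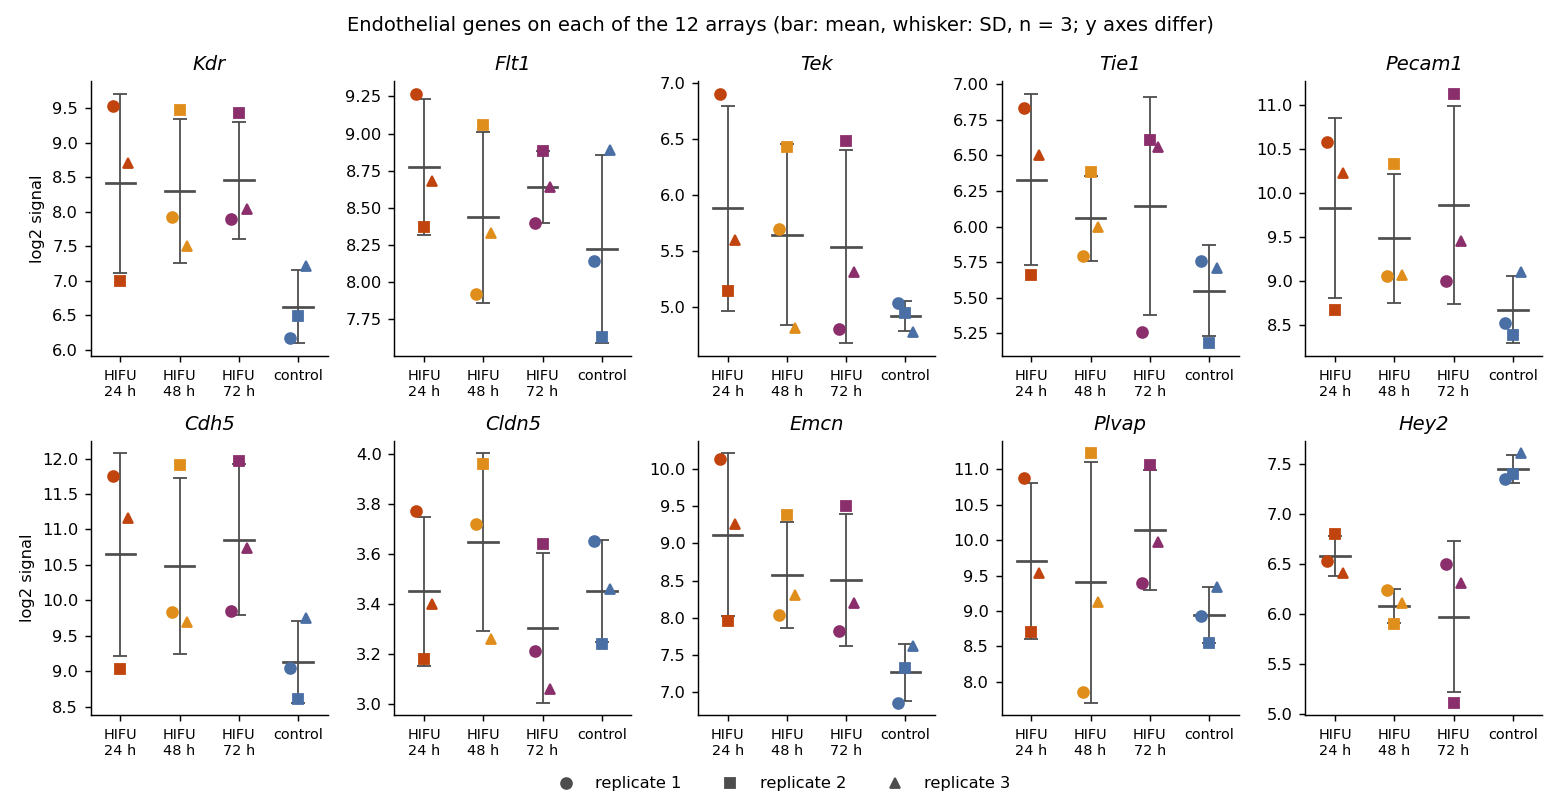
Log2 signal (y axis, scale differs between panels) of each of the 10 endothelial genes on each array, by group (x axis: HIFU 24 h, 48 h, 72 h and control). Symbols mark replicates, bars the mean and whiskers the SD of 3 arrays; HIFU_24h replicate 1, HIFU_48h replicate 2 and HIFU_72h replicate 2 are the high points of most panels, and Hey2 alone has all 9 HIFU arrays below the controls.

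The plot of signals by array shows the same 3 arrays at the top of most panels, 1 from each HIFU group. The junction genes follow that order. Pecam1 encodes the adhesion molecule PECAM-1, also carried by platelets and some leukocytes. Its signals were 10.58, 8.66 and 10.23 at 24 h, 9.05, 10.33 and 9.06 at 48 h, and 8.99, 11.13 and 9.45 at 72 h, against 8.52, 8.38 and 9.10 in controls. Of the 9 HIFU arrays 5 lay above every control, and each HIFU group overlapped the controls. The mean HIFU difference was 1.05 ± 0.50 (limma adjusted p = 0.361). Cdh5 encodes VE-cadherin, the cadherin of endothelial adherens junctions. Signals were 11.75, 9.03 and 11.16 at 24 h, 9.84, 11.91 and 9.69 at 48 h, and 9.85, 11.97 and 10.74 at 72 h, against 9.04, 8.60 and 9.75 in controls. Only the 72 h arrays were all above the controls, the lowest of them narrowly. The mean HIFU difference was 1.53 ± 0.64, with a 95% interval of 0.12 to 2.94 (limma adjusted p = 0.307).

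Cldn5 encodes claudin-5, a tight junction protein most abundant in the blood-brain barrier. Its signals lay between 3.18 and 3.77 at 24 h, 3.26 and 3.96 at 48 h and 3.06 and 3.64 at 72 h, against 3.24 and 3.65 in controls. The groups overlapped throughout, and the mean HIFU difference was 0.02 ± 0.21 (95% interval -0.45 to 0.49). The mean signal stood at the 22.9th percentile of all probe sets, while the other 9 genes stood above the 25% of probe sets with the lowest means.

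Emcn encodes endomucin, a sialomucin of venous and capillary endothelium. Its signals were 10.14, 7.96 and 9.26 at 24 h, 8.03, 9.38 and 8.31 at 48 h, and 7.82, 9.51 and 8.20 at 72 h, against 6.85, 7.32 and 7.62 in controls. All 9 HIFU arrays lay above every control, the only 1 of the 10 genes for which this held. The differences were 1.86 ± 0.58 at 24 h, 1.31 ± 0.58 at 48 h and 1.25 ± 0.58 at 72 h (limma adjusted p = 0.361, 0.366 and 0.452). For the mean of the HIFU groups the difference was 1.47 ± 0.47, with a 95% interval of 0.43 to 2.51 and a fold of 2.77 (limma adjusted p = 0.215).

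Plvap encodes the diaphragm protein of fenestrated and caveolar endothelium, and is a marker of leaky tumor vessels. Its signals were 10.88, 8.70 and 9.54 at 24 h, 7.86, 11.23 and 9.12 at 48 h, and 9.39, 11.06 and 9.98 at 72 h, against 8.93, 8.55 and 9.34 in controls. It had the widest spread of the 10 genes within a group, with an SD of 1.70 at 48 h, where replicate 1 was the lowest array of all and replicate 2 the highest. The 72 h arrays were above the controls, the lowest of them narrowly, and the 24 h and 48 h groups overlapped them. The mean HIFU difference was 0.81 ± 0.64 (limma adjusted p = 0.603).

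Hey2 encodes a transcriptional repressor downstream of Notch, associated in endothelium with arterial identity and also expressed outside it, in heart and other tissues. Its signals were 6.53, 6.80 and 6.41 at 24 h, 6.24, 5.90 and 6.11 at 48 h, and 6.50, 5.11 and 6.31 at 72 h, against 7.35, 7.40 and 7.61 in controls. All 9 HIFU arrays lay below every control. The differences were -0.87 ± 0.32 at 24 h, -1.37 ± 0.32 at 48 h and -1.48 ± 0.32 at 72 h (limma adjusted p = 0.433, 0.202 and 0.255). The mean HIFU difference of -1.24 ± 0.26, with a 95% interval of -1.82 to -0.66, was 2.36-fold lower and had the smallest adjusted p of the 10 genes (limma adjusted p = 0.125). The lowest array, HIFU_72h replicate 2, was among the highest for Kdr, Pecam1 and Cdh5.

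**Figure D2:**
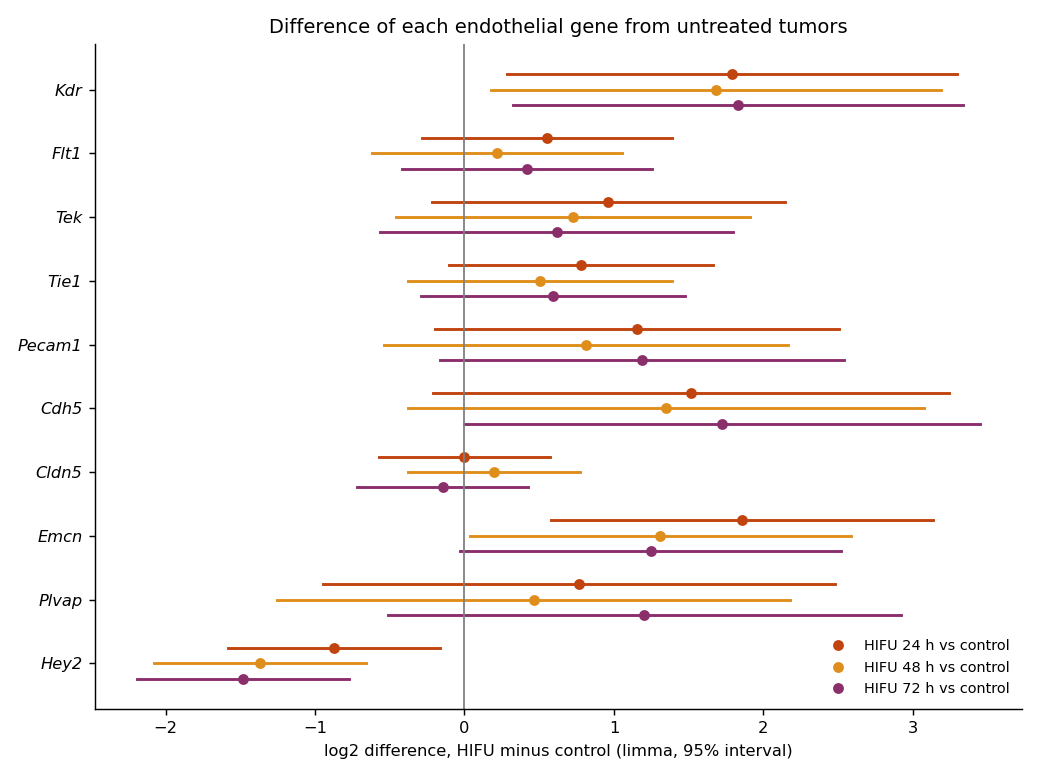
Log2 difference from control (x axis, limma estimate with its 95% interval) for each endothelial gene (y axis) at 24 h, 48 h and 72 h. The Kdr intervals lie above 0 and the Hey2 intervals below 0 at all times, while no gene passes the adjusted threshold; the 3 comparisons share their controls.

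In the plot of differences from control, the estimates of a gene at the 3 times lay close together relative to their intervals. An unadjusted p under 0.05 was reached at 24 h by Kdr and Emcn (higher) and Hey2 (lower), against 3.98% of all probe sets higher and 5.86% lower. At 48 h the same 3 genes reached it, against 5.3% higher and 8.01% lower, and at 72 h Kdr and Hey2 did, against 5.85% and 5.39%. For the mean of the HIFU groups it was Kdr, Emcn and Cdh5 (higher, 6.01% of all) and Hey2 (lower, 8.59%). A group whose 3 arrays all lay above all controls was found for 2 genes at 24 h, 3 at 48 h and 4 at 72 h, against 6.84%, 10.3% and 8.99% of all probe sets. All 9 HIFU arrays lay above the controls for 1 gene, Emcn, against 1.76% of all probe sets. All arrays of a HIFU group lay below all controls for 1 gene, Hey2, at each time, against 7.68%, 11.7% and 10.1% of all probe sets, and all 9 for the same gene, against 1.65%.

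Between times the genes were not distinguished. No gene passed the adjusted threshold between 48 h and 24 h, 72 h and 48 h or 72 h and 24 h, a call made for 0% of all probe sets in each, and 0 of the 10 reached an unadjusted p under 0.05, against 3.89%, 6.26% and 5.57% of all probe sets. The smallest adjusted p was 0.875 (limma, Cldn5, 72 h against 48 h). The order of the group means differed between genes. Pecam1, Cdh5, Kdr and Plvap were highest at 72 h, and Flt1, Tek, Tie1 and Emcn at 24 h, while Cldn5 was highest at 48 h and Hey2 in controls. Among HIFU groups, neighbouring means of these 10 genes lay within the larger SD of the 2 groups, except those of Hey2 at 24 h and 48 h. Emcn was 0.61 ± 0.58 below its 24 h level at 72 h (-0.61, limma adjusted p = 0.925), and Hey2 was 0.61 ± 0.32 below its own (-0.61, limma adjusted p = 0.889).

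The genes moved together across tumors. Over the 12 arrays the Pearson correlation of a gene with the mean standardised signal of the other 9 was 0.950 for Cdh5, 0.932 for Pecam1, 0.903 for Kdr, 0.899 for Emcn and 0.877 for Tek. It was 0.848 for Plvap and 0.832 for both Flt1 and Tie1, lower for Cldn5 (0.540) and negative for Hey2 (-0.663). The closest pairs were Pecam1 with Cdh5 (0.971), Cdh5 with Kdr (0.967) and Kdr with Emcn (0.950), and the most opposed was Kdr with Hey2 (-0.761). These are descriptions over arrays that share groups and normalization. Outside the 10, the 6 genes most like their mean were Prss23 (0.962), Pmepa1 (0.962), Diaph1 (0.955), Gpx7 (0.954), Ephb4 (0.953), the venous receptor of ephrin-B2, and Tm4sf1 (0.951), a surface protein of endothelium.

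Relative to the control mean, the median of the 10 genes was 1.93, 0.05 and 0.81 at 24 h, 0.33, 1.58 and 0.29 at 48 h, and 0.25, 1.84 and 0.86 at 72 h, against -0.09, -0.25 and 0.38 in controls. Control replicate 3 thus lay above 4 HIFU arrays. The 3 arrays that led the endothelial genes also led the lists of skeletal muscle, fibroblast, pericyte and smooth muscle, other endothelial surface and Notch genes, as the plot of list medians by array shows. The muscle median was 5.47, 2.39 and 2.93 at 24 h, 3.31, 4.43 and 3.03 at 48 h and 2.26, 5.58 and 2.99 at 72 h, against -1.41, -0.53 and 2.19 in controls. All 18 muscle genes were measured, and their summed linear signal ran from 1896810 to 4802610 at 24 h, 2216470 to 3515750 at 48 h and 1595200 to 5083890 at 72 h, against 124674 to 1579660 in controls. The lowest HIFU array by this sum, HIFU_72h replicate 1, lay just above control replicate 3. Gene by gene, 6 of the 18 muscle genes had all 9 HIFU arrays above every control, against 1.76% of all probe sets. For 9 of 10 fibroblast genes the sum ran from 10267 to 102808, 19511 to 249098 and 28598 to 342227, against 12527 to 14878 in controls. Fbln1 had the highest control signals of that list (13.42, 13.38 and 12.97) and weighs most in the control sums. It was also the only 1 of the 9 with a mean HIFU difference below 0 (-1.27). The fibroblast median ran from 0.22 to 4.13 at 24 h, 1.57 to 5.86 at 48 h and 2.38 to 6.79 at 72 h, against -0.74 to 1.33 in controls. Every deposited log2 value was above 0, so a signal above 0 does not show that these transcripts were present in a tumor.

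**Figure D3:**
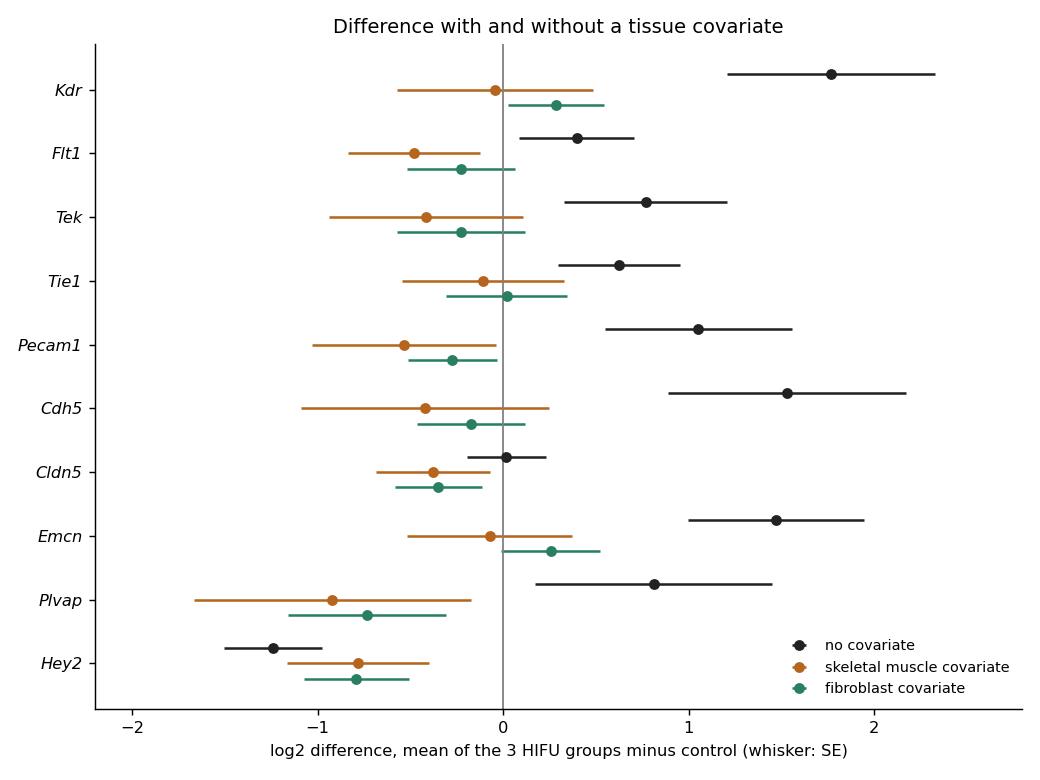
Log2 difference of the mean of the 3 HIFU groups minus control (x axis, estimate with SE) for each endothelial gene (y axis), without a covariate and with the array median of skeletal muscle or fibroblast genes in the model. Kdr moves to -0.04 and Emcn to -0.07 with the muscle covariate, and to 0.28 and 0.26 with the fibroblast covariate. Hey2 stays below 0 in each.

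With the muscle median of each array in the model, the median difference of the 10 genes changed sign, to -0.36 at 24 h, -0.52 at 48 h, -0.43 at 72 h and -0.42 for the mean of the HIFU groups. Kdr then differed by -0.04 ± 0.53, Emcn by -0.07 ± 0.45 and Hey2 by -0.78 ± 0.38 (95% interval -1.63 to 0.06). The fibroblast median, a covariate added after the data were seen, gave 0.18 at 24 h, -0.28 at 48 h, -0.46 at 72 h and -0.23 for the mean. For the mean, Hey2 was then at -0.79 ± 0.28, Kdr at 0.28 ± 0.26 and Emcn at 0.26 ± 0.27. Kdr went from 0.66 ± 0.27 at 24 h to -0.05 ± 0.32 at 72 h with it, and Emcn from 0.93 ± 0.28 to -0.29 ± 0.33. The covariates differ between the groups themselves, so a model that holds them constant also removes part of any group difference. Control replicate 3 was the only control with muscle signal near that of the HIFU arrays, and muscle content and HIFU cannot be told apart by these fits. In the plot with and without covariates, the mean HIFU estimates of all 10 genes lay below 0 with the muscle covariate, the lowest being that of Plvap at -0.92 ± 0.75.

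Ligands of the VEGF and TIE receptors gave contrasting values, with 0 of 10 past the adjusted threshold. Angpt1, the agonist ligand of TIE2, had signals of 6.62, 5.67 and 6.90 at 24 h, 6.63, 7.24 and 5.86 at 48 h, and 6.24, 8.31 and 5.69 at 72 h, against 4.37, 4.43 and 4.97 in controls. All 9 HIFU arrays lay above the controls, with a mean difference of 1.98 ± 0.50 (limma adjusted p = 0.141). Angpt2, the context-dependent antagonist released by activated endothelium, had signals of 7.04, 7.82 and 7.05 at 24 h, 7.36, 6.86 and 7.38 at 48 h, and 7.31, 7.54 and 8.0 at 72 h, against 8.90, 8.38 and 7.58 in controls. The 48 h arrays lay below every control and the 24 h and 72 h groups overlapped the controls, with a mean HIFU difference of -0.91 ± 0.29 (limma adjusted p = 0.21). Vegfa, the main ligand of VEGFR2 and a hypoxia-induced gene, differed by -1.06 ± 0.37 (limma adjusted p = 0.237), and Fgf2, another angiogenic factor, by 0.69 ± 0.38. On the same array Angpt1 minus Angpt2 ran from -2.31 to 0.77 on HIFU arrays and from -4.53 to -2.61 on control arrays, a pair also chosen after its values were seen.

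**Figure D4:**
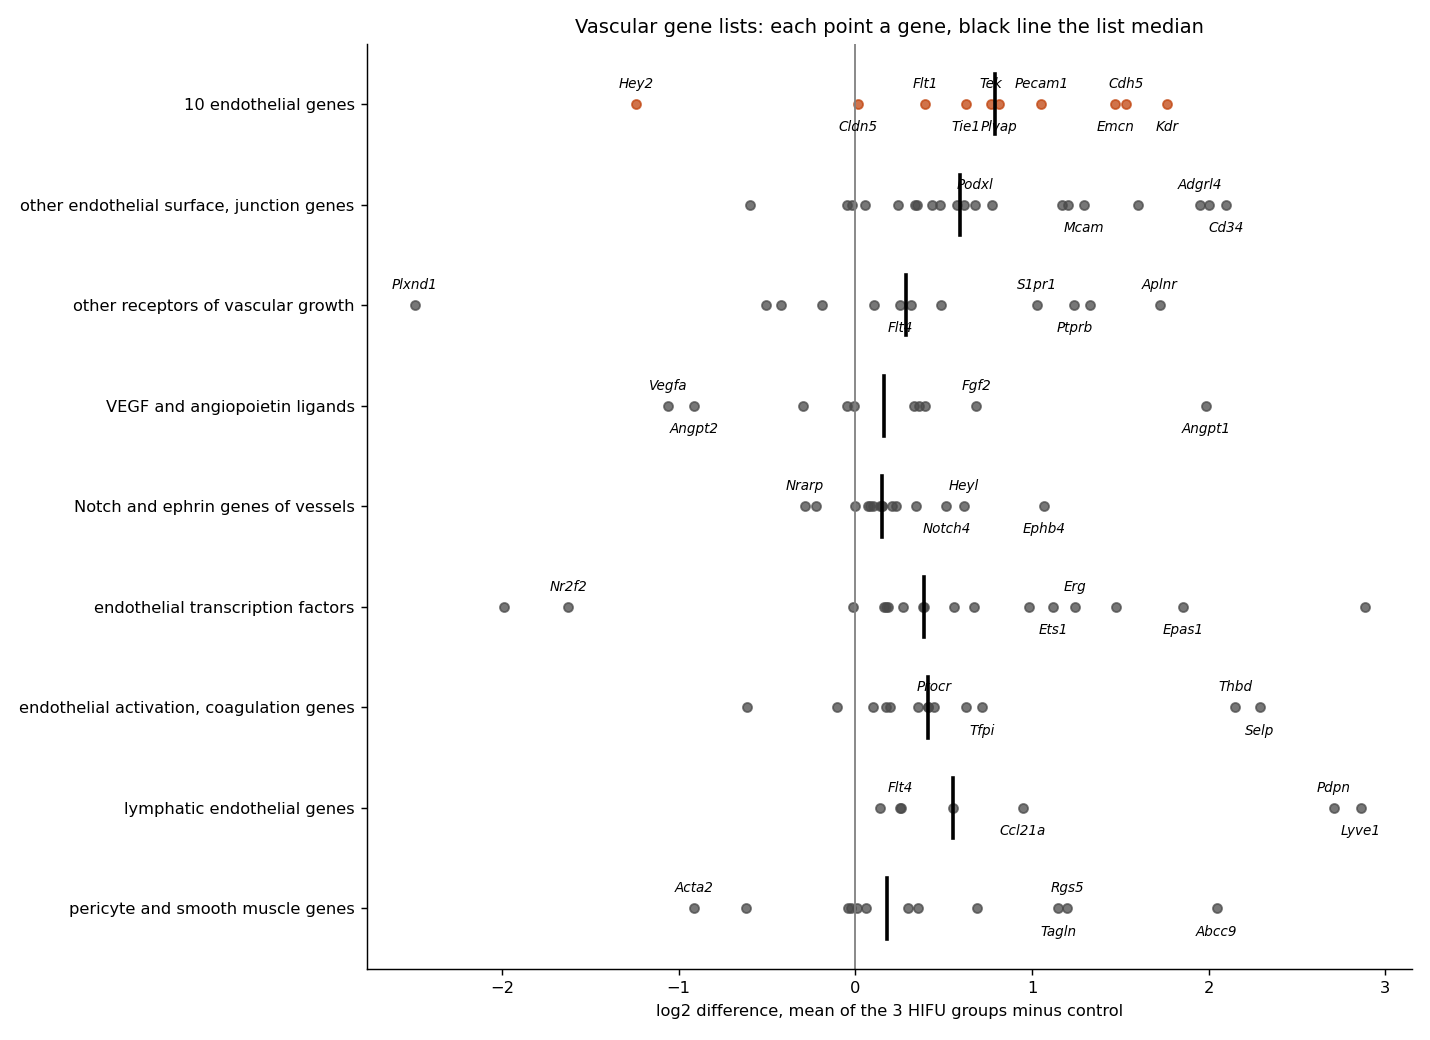
Log2 difference of the mean of the 3 HIFU groups minus control (x axis) for genes of 9 vascular lists (y axis). Each point is 1 gene, black lines are list medians, and labels mark the genes named by rule; the 10 endothelial genes (median 0.79) and the other endothelial surface genes (median 0.59) lie mostly above 0, the Notch and pericyte lists (0.15 and 0.18) near it.

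In the plot of vascular lists, 0 genes of any list passed the adjusted threshold for the mean of the HIFU groups. Of 20 measured endothelial surface and junction genes (of 23), 17 were above 0 with a median of 0.59, and 8 reached an unadjusted p under 0.05 upward and 0 downward. In this comparison 49.3% of all probe sets were above 0, 6.01% reached that p upward and 8.59% downward, which are the shares to set beside the counts of each list that follows. Among them Cd34, a sialomucin of capillaries and of progenitors and stroma, differed by 2.10 ± 0.76, Adgrl4, an endothelial adhesion receptor, by 1.95 ± 0.61, and Mcam, also on pericytes, by 1.29 ± 0.46. All 9 HIFU arrays lay above the controls for Adgrl4. Of 12 other vascular receptors (of 13), 8 were above 0 with a median of 0.29. Aplnr, the apelin receptor, differed by 1.72 ± 0.49, Ptprb, a phosphatase acting on TIE2 and VE-cadherin, by 1.24 ± 0.47, and S1pr1, a sphingosine phosphate receptor of vessel stability, by 1.03 ± 0.45. Plxnd1, a semaphorin receptor, ran the other way, at -2.49 ± 0.64 (limma adjusted p = 0.147).

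Notch and ephrin genes stayed nearer to 0, with 12 of 15 above it, a median of 0.15 and 1 past an unadjusted p under 0.05, Ephb4 (1.07 ± 0.45). Heyl, another HEY family gene, differed by 0.61 ± 0.34, and the Notch target Nrarp by -0.29 ± 0.26, and no gene of this list was as low as Hey2. Of 17 endothelial transcription factors 14 were above 0 (median 0.39), with the ETS family members Erg and Ets1 at 1.24 ± 0.38 and 1.12 ± 0.41 and the hypoxia factor Epas1 at 1.85 ± 0.46. Nr2f2, which directs venous identity in endothelium, was lower in value, at -1.63 ± 0.50 (limma adjusted p = 0.199). Its control signals of 12.86, 12.80 and 11.50 lay above those of all 10 endothelial genes. Which cells of the tumor gave the Nr2f2 signal was not tested.

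Of 13 endothelial activation and coagulation genes (of 14), 11 were above 0 (median 0.41). Selp, P-selectin of activated endothelium and platelets, differed by 1.70 ± 0.65 at 24 h, 2.02 ± 0.65 at 48 h and 3.14 ± 0.65 at 72 h. The 7 measured platelet markers (of 10) had a median of 0.17, 0.49 and 1.27 at those times. Single platelet markers ran from -0.55 to 2.06 at 24 h, -0.53 to 3.71 at 48 h and 0.35 to 7.52 at 72 h. The highest of them thus lay above Selp at each time. Thbd, thrombomodulin, an anticoagulant receptor, had signals of 11.31, 7.49 and 10.04 at 24 h against 5.55, 5.55 and 5.73 in controls, a difference of 4.0 ± 0.77 (limma adjusted p = 0.134), and 1.21 and 1.24 at 48 h and 72 h. All 7 lymphatic genes were above 0 (median 0.55), led by Lyve1, a hyaluronan receptor of lymphatic endothelium and some macrophages, at 2.86 ± 0.82 (limma adjusted p = 0.175), and Pdpn, also on fibroblasts, at 2.71 ± 1.01. Lyve1 lay above every control on all 9 HIFU arrays. Of 12 pericyte and smooth muscle genes 8 were above 0 (median 0.18), from Abcc9 at 2.04 ± 0.73 to Acta2, smooth muscle actin, at -0.91 ± 0.47. The part of muscle, fibroblast and platelet content in these values was not tested.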

How the data were processed

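RNA of 12 tumors was measured on Clariom S arrays, 1 array per tumor. The log2 signals per probe set are the values deposited by the authors. Per the submitters' processing notes, Transcriptome Analysis Console 4.0 was used. For normalization, background correction and genome build no source used here gives a method, and log base 2 was read from the range of values, 1.75 to 19.93. Because arrays are normalized to each other, differences are mainly relative to the other genes. Arrays give no read depth, and 3 per group limits the precision.

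Of 22206 probe sets, 19572 had 1 symbol in the platform annotation, 2634 none and 0 several, and 55 symbols lay on more than 1 probe set. Nrp1, Egfl7 and Pdgfra are among the listed genes that were not analysed here.

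Group means over all 12 arrays were fitted with limma 3.58.1 (lmFit, eBayes) in R 4.3.3, with 3.37 prior degrees of freedom, two-sided tests and Benjamini-Hochberg adjustment over all probe sets. Errors beside differences are SE, and those beside means are SD. The 7 contrasts set the HIFU times, singly and as a mean, against control, and the times against each other. The fit was tested on simulated data. Figures were drawn with Python 3.11.15.

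The members and the 17 gene lists were chosen with earlier results of these data known. The text names all 10 members. It also names genes of each vascular list from among the up to 4 with the smallest unadjusted p for the mean HIFU contrast. Not all of these are written out, and some, such as Podxl and Notch4, are only labelled in the plot of vascular lists. The text further names, by the same rule, the 6 genes most correlated with the mean of the members. The markers Chgb, Stmn2, Dbh, Mycn and Ddc fall outside that rule and were chosen after their values were seen. Alternatives were a replicate block, a filter on low signals, array weights, quantile normalization, centring on medians, robust estimation with a trend on intensity, fits of the compared groups alone, a 2-fold rule with unadjusted p, a muscle or a fibroblast covariate, and leaving out arrays.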

Additional observations from a re-analysis of the deposited data

How the results depend on the processing

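Leaving out each array in turn, 0 of the 10 endothelial genes passed in any comparison. The median difference of the 10 genes ranged from 0.49 to 1.30 at 24 h, 0.34 to 0.865 at 48 h, 0.457 to 1.31 at 72 h and 0.606 to 0.935 for the mean of the HIFU groups. The low ends were the values without HIFU_24h replicate 1, HIFU_48h replicate 2 and HIFU_72h replicate 2 for the 3 times. Without HIFU_48h replicate 2 the 48 h difference became -0.095 for Flt1 and -0.45 for Plvap. Probe sets called ranged from 0 to 253 at 24 h, 0 to 312 at 48 h, 1 to 194 at 72 h, 1 to 398 for the mean, 0 to 2 for 72 h against 48 h and 0 to 7 for 72 h against 24 h. The reported counts were 12, 1, 2 and 4 for the HIFU comparisons and 0 between times.

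Array weights called 1118 probe sets at 24 h, 944 at 48 h, 1846 at 72 h, 3787 for the mean and 7 for 72 h against 24 h. With them 2 members passed at 24 h, Kdr (2.32, adjusted p = 0.0283) and Emcn (2.24, 0.0205), 1 at 48 h, Hey2 (-1.31, 0.0202), and 2 at 72 h, Kdr (1.57, 0.0391) and Hey2 (-1.12, 0.00856). For the mean, 6 passed, namely Pecam1 (1.12), Cdh5 (1.78), Kdr (1.83), Flt1 (0.75), Emcn (1.44) and Hey2 (-1.09, limma adjusted p = 0.00229). Control replicate 2 had the highest weight, 4.2, and HIFU_72h replicate 2 the lowest, 0.31. Leaving out control replicate 3 and HIFU_72h replicate 2 together, chosen after the data were seen, called 468, 645, 164 and 728 probe sets at 24 h, 48 h, 72 h and for the mean. Of the members, 1 passed at 48 h and 1 for the mean, Hey2 in both (-1.29, adjusted p = 0.0217, and -1.02, adjusted p = 0.0298, by limma). The cause of these changes was not tested.

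An unadjusted p with a 2-fold change called 1197, 1623, 1620 and 1500 probe sets in the HIFU comparisons, with 2, 3, 2 and 4 members, and 153, 396 and 536 between times (48 h against 24 h, 72 h against 48 h, 72 h against 24 h). Median centring and the trend with robust estimation called 14 probe sets each for the mean, and leaving out the lowest 25% called 15 for the mean and 4 at 72 h. Quantile normalization called 1 at 72 h, and fitting only the groups compared called 6 at 48 h and 2 for 72 h against 24 h. In none of these last 5 settings did a member pass.

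The muscle covariate called 0, 0, 1 and 1 probe sets and gave member medians of -0.36, -0.52, -0.43 and -0.42 at 24 h, 48 h, 72 h and for the mean. The fibroblast covariate, added later, called 29 at 24 h, 1 at 72 h, 1 for the mean and 18 for 72 h against 24 h, with medians of -0.28 at 48 h, -0.46 at 72 h and -0.23 for the mean. Hey2 kept its sign against control in every alternative run. The labels do not say whether the replicate numbers pair the samples. Correlations of same-numbered deviations ran from -0.608 to 0.625 (median -0.133, 4 of 18 pairs over 0.1). Those of other pairs ran from -0.582 to 0.597. These values gave no sign of pairing but could not settle it. With the replicate block 3, 0, 1 and 1 probe sets were called and 0 members.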
